A study of Homo sapiens with 6 samples.

Results

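INSM1 and 9 other genes for transcription factors of neuroendocrine and neuronal cells were described in H69 cells, a human cell line, with and without a histone deacetylase inhibitor. The 10 genes were INSM1, ISL1, PROX1, POU3F2, POU2F3, MYT1, MYT1L, ST18, SCRT1 and SCRT2. They were picked by symbol with earlier results of these data known, and all 10 had a row among the 31814 genes of the deposited table. The vehicle group (3 libraries) received DMSO, and the other group (3 libraries) received trichostatin A (TSA) at 1 µM. RNA of both groups was taken after 24 h in medium with serum. In the labels the tag for treatment reads HSA in the treated group, whereas TSA is the agent named by the protocol and by the design text. No genotype, clone or tissue is labelled, and nothing states that libraries of one group are from separate cultures. What the p-values measure is thus the spread among these libraries, and this spread may be technical.

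INSM1 is a zinc finger repressor that is turned on in developing endocrine and neural cells and serves pathologists as a nuclear marker of neuroendocrine tumours. Its protein starts with a SNAG domain, a short stretch shared with the SNAI, GFI1 and SCRT proteins that binds the demethylase LSD1 and its CoREST and HDAC partners. TSA blocks the zinc-dependent HDACs. The other genes encode homeodomain factors of endocrine and neuronal lineages (ISL1, PROX1, POU3F2), the master factor of tuft cells (POU2F3), and the related zinc finger proteins MYT1, MYT1L and ST18, of which MYT1L represses non-neuronal genes in neurons. POU2F3 marks a form of small cell lung cancer that lacks most neuroendocrine features, so it is the contrast within this set.

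Expression is given as TPM, reads scaled by gene length and library total, so that levels of different genes can be set side by side. Whole reads recovered from the ratios of TPM values came to at least 22533307 to 26148651 per library. Libraries differed in how much of long transcripts they held. Over 2548 tested genes with an annotated transcript above 6000 nt, the median difference from the mean of the group was −0.22 (log2) in vehicle library 2 and 0.31 in TSA library 1. In the other 4 libraries it was between −0.16 and 0.13. Mitochondrial genes took 4.97% of all TPM in vehicle library 2 and 16.9% in TSA library 1, the lowest and the highest share of the 6. For the factor genes that were at their lowest and highest in these libraries, values without each of them are given.

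Neuroendocrine markers were high in vehicle, as 32 listed genes summed to 5771 to 6404 TPM. Among 13 bile duct markers, checked because a cholangiocyte line is also called H69, 6 were under 1 TPM in every vehicle library. Another 7 reached 1 TPM in all vehicle libraries, and the list summed to 779 to 990.1 TPM. CFTR, an anion channel of bile duct cells, had a vehicle mean of 0.0941 TPM. KRT19, an epithelial keratin, was at 208 ± 48.2 TPM (mean ± SD, n = 3), and EPCAM, also on this list, was at 600 ± 61.9 TPM. Of 14 fibroblast, endothelial and blood markers 7 were listed at 0 in every vehicle library, and the list summed to 6.27 to 7.96 TPM.

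RefSeq promoter windows on GRCh38.p14, from 250 bases before a gene's start to 50 after it, were matched for 5 of the 10 genes. Those of INSM1, PROX1, POU2F3, ST18 and SCRT1 were not matched. The 250 bases before the start are shown for SCRT2, whose mean TPM fell to 2.83% of vehicle, and for ISL1 and POU3F2, which kept 48.2% and 72.3%. Capitals mark every CANNTG (an E-box, the core site of basic helix-loop-helix factors; CAGCTG is one of its forms) and every TATAAA, searched on both strands.
SCRT2, chr20:675803-676052, minus strand: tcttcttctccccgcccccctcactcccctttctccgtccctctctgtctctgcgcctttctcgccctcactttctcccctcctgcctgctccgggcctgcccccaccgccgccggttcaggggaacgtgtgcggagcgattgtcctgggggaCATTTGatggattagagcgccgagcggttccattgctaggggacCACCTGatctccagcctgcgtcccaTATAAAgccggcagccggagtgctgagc
ISL1, chr5:51383198-51383447, plus strand: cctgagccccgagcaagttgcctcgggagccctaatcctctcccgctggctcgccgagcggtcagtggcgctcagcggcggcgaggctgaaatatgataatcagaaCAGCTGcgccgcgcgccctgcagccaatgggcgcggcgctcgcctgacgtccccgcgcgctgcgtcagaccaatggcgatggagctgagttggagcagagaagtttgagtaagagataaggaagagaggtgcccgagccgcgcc
POU3F2, chr6:98834324-98834573, plus strand: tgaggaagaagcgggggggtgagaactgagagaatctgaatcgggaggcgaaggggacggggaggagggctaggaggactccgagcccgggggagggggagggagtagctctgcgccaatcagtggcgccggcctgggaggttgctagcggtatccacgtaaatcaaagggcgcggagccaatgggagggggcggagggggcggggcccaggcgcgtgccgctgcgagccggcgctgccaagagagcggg

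The SCRT2 sequence held E-boxes that began 97 and 53 bases before the start, and a TATAAA that began 28 bases before it. The ISL1 sequence held 1 E-box, of the form CAGCTG, 144 bases before the start, and that of POU3F2 held neither motif. Over all 35116 windows of 300 bases in the table, 68.7% held a CANNTG, 17.9% a CAGCTG and 11.5% a TATAAA. GC content of the whole windows was alike in these 3 genes, at 66.7% for SCRT2, 66.7% for ISL1 and 68.3% for POU3F2, against a median of 58.7% over all windows. The MYT1 window was at 48%, and 4 windows of MYT1L were at 44% to 51.7%. MYT1, whose mean TPM fell to 27.2% of vehicle, had neither motif in its window. MYT1L fell to 4.32%, and its windows held 3, 0, 1 and 3 CANNTG and no TATAAA. A relation between these motifs and the size of the falls was not tested. A match is a description of the letters and does not show that a factor binds there, and the start used in H69 cells is not known from these data.

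TSA against vehicle was compared for every gene with limma, and the 10 genes were read from that fit. Of the 9 factor genes that passed the filter on low values, 8 were lower in TSA, 0 were higher, and POU3F2 did not pass the test. Of all 17596 tested genes 34.2% were lower, 28% higher and 62.2% changed in either direction. The 3 values of each group did not overlap for any of the 9, as for 67% of all tested genes. MYT1L and SCRT2 were under 1 TPM in every TSA library and passed the filter through their vehicle values alone. Of the 7 genes at 1 TPM or more in all 6 libraries, 6 were lower. In these bulk samples, fewer cells that express a gene and less RNA per cell cannot be told apart.

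**Figure D1:**
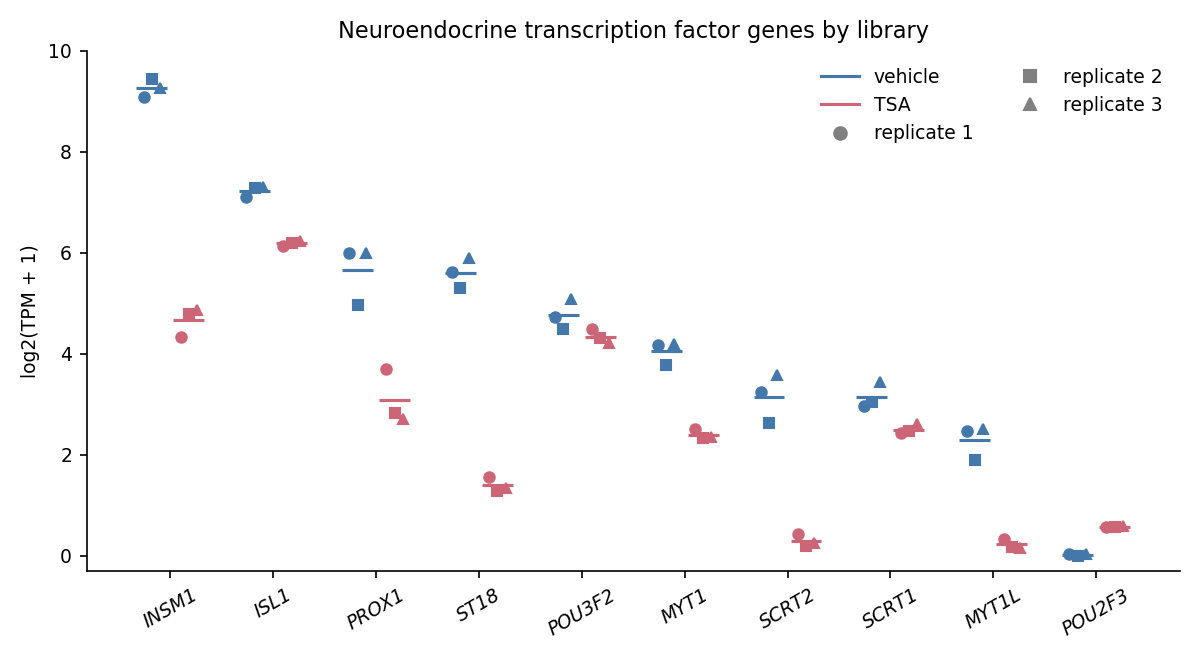
Level of each factor gene in each of the 6 libraries, as log2(TPM + 1) on the y axis, with genes on the x axis ordered by vehicle mean; symbols stand for replicate numbers and short lines for group means of 3 libraries. The TSA values lie under the vehicle values for all genes except POU2F3, and those of POU3F2 nearly touch.

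INSM1 had the highest level of the 10 genes in vehicle, but not in TSA. It was at 538, 693 and 610.1 TPM in vehicle libraries 1, 2 and 3 and at 19.1, 26.7 and 28.3 TPM in TSA libraries 1, 2 and 3. All 3 TSA values were far under all 3 vehicle values. The means were 614 ± 77.4 and 24.7 ± 4.93 TPM (SD, n = 3 each), a 24.8-fold lower mean. On the log2(TPM + 1) scale it fell by 4.59, with a standard error of 0.17 and a limma adjusted p of 7.17e-06. By mean TPM it ranked 168 among all genes of the table in vehicle and 6385 in TSA. Of the tested genes 15 had a greater fall on this scale. INSM1 made up 63.3% to 71.8% of the summed TPM of the 10 genes in vehicle libraries and 14.3% to 20.7% in TSA libraries.

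The SCRT genes encode the Scratch proteins, SNAG zinc finger repressors of neurons. They had like levels in vehicle and parted in TSA. Vehicle libraries held SCRT2 at 8.41, 5.16 and 10.9 TPM, and TSA libraries at 0.346, 0.150 and 0.197 TPM. Its mean was 35.3-fold lower, from 201, 116 and 276 recovered reads in vehicle libraries to 9, 4 and 5 in TSA libraries. The fitted log2 fold change was −2.85 with a standard error of 0.26 (adjusted p 0.000126), a scale that understates the change of a gene near 0 TPM. SCRT2 was lowest in vehicle library 2 and highest in TSA library 1 within its groups, and its log2 fold change was −3.11 without the first and −2.91 without the second.

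SCRT1 moved far less. Its vehicle values were 6.82, 7.21 and 9.80 TPM and its TSA values 4.37, 4.51 and 5.08 TPM, and the groups did not overlap. The log2 fold change was −0.65 with a standard error of 0.17 (adjusted p 0.0145). This call ended under quantile scaling (log2 fold change −0.54, adjusted p 0.0624). Over its 19 alternatives the adjusted p ran from 0.00261 to 0.0624. The difference between the SCRT2 and SCRT1 responses was not tested.

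**Figure D2:**
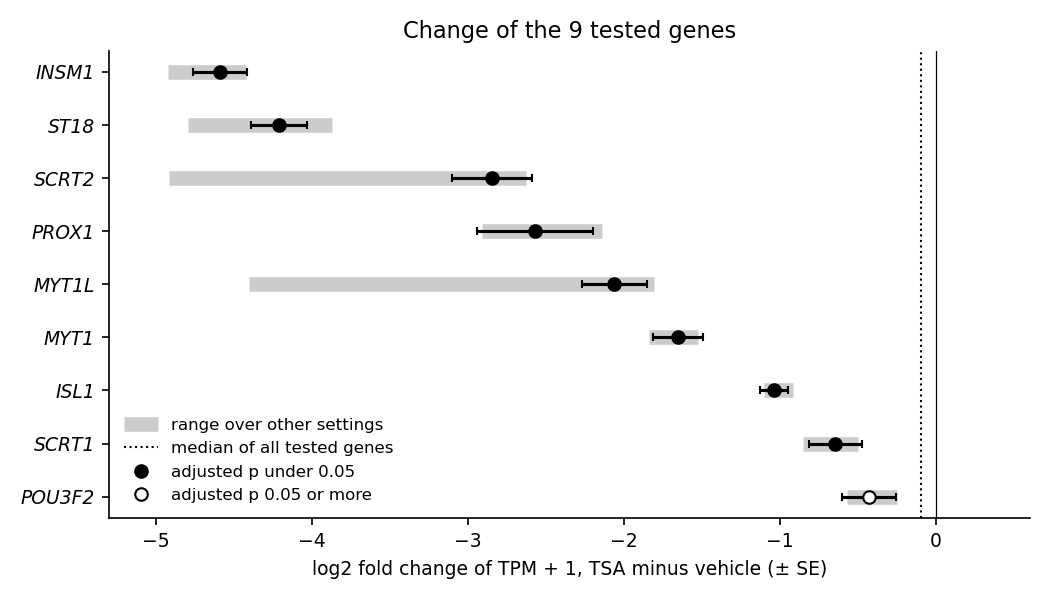
Log2 fold change (x axis, TSA minus vehicle, on TPM + 1) of the 9 tested factor genes with its standard error; grey bars give the range over the alternatives and the dotted line the median of all tested genes. All points lie below 0, from −0.43 for POU3F2 to −4.59 for INSM1, and the bars of SCRT2 and MYT1L are long because their TSA values are close to 0 TPM.

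The MYT family encodes zinc finger proteins of neurons and endocrine cells, and its 3 genes were all lower. ST18, also called MYT3, measured 48.3, 38.7 and 58.3 TPM in vehicle libraries, and 1.93, 1.44 and 1.53 TPM after TSA. The groups were far apart, with a 29.6-fold lower mean and a log2 fold change of −4.21 (standard error 0.18, adjusted p 9.68e-06). Next to INSM1 it had the greatest fall of the 9 tested factor genes on this scale.

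MYT1L, a factor that holds neurons in their identity, had 4.52, 2.71 and 4.70 TPM in vehicle libraries, and 0.263, 0.133 and 0.119 TPM after TSA. Its recovered reads fell from 395, 223 and 435 to 25, 13 and 11. The mean was 23.2-fold lower, while the fitted log2 fold change was −2.06 (standard error 0.21, adjusted p 0.000192).

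MYT1 kept more of its RNA. Vehicle values were 17.1, 12.8 and 17.3 TPM, and TSA values 4.67, 4.07 and 4.09 TPM. The mean was 3.67-fold lower and the log2 fold change −1.65 (standard error 0.16, adjusted p 0.000163). All 3 genes were lowest in vehicle library 2 and highest in TSA library 1 within their groups, the libraries with the lowest and highest share of long transcripts. Their longest annotated transcripts measure 5614 nt for MYT1, 6187 nt for ST18 and 7322 nt for MYT1L. Without vehicle library 2 the log2 fold change was −1.79 for MYT1, −4.36 for ST18 and −2.26 for MYT1L. Without TSA library 1 it was −1.71 for MYT1, −4.29 for ST18 and −2.12 for MYT1L. With length and GC trends removed from each library it was −1.59 for MYT1, −3.88 for ST18 and −1.81 for MYT1L.

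PROX1, a prospero homeodomain factor of liver, lymphatic, neural and endocrine progenitors, varied most between libraries of a group among the genes above 1 TPM throughout. Its level was 62.4, 30.4 and 62.5 TPM in vehicle libraries, and 12.0, 6.06 and 5.54 TPM after TSA. Vehicle library 2 lay well under the other two and TSA library 1 well over them, and the groups still did not overlap. The log2 fold change was −2.57 with a standard error of 0.37 (adjusted p 0.000977). It was −2.91 without vehicle library 2, −2.89 without TSA library 1, and −2.14 with length and GC trends removed. PROX1 has the longest annotated transcript of the 10 genes, at 8498 nt. PROX1-AS1, an RNA on the opposite strand that overlaps PROX1, moved the same way, from 2.33 ± 0.653 to 0.579 ± 0.118 TPM (log2 fold change −1.06, standard error 0.18, adjusted p 0.0023). PROX1-AS1 was under 1 TPM in every TSA library and passed the filter through its vehicle values alone. Whether counting used strand is not given in these sources, and without strand the reads of both genes cannot be told apart.

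ISL1, a LIM homeodomain factor of motor and sensory neurons and of pancreatic islets, had the smallest standard error of the 9 tested genes. Vehicle libraries held it at 136, 154 and 157 TPM, and TSA libraries at 68.9, 72.5 and 74.0 TPM. Every TSA value was under every vehicle value. The log2 fold change was −1.04 with a standard error of 0.091 (adjusted p 0.00011), a 2.08-fold lower mean.

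POU3F2, known as BRN2, is a POU factor of neural progenitors and of neuroendocrine tumours. Its vehicle values were 25.6, 21.5 and 33.0 TPM and its TSA values 21.4, 18.9 and 17.6 TPM. The lowest vehicle value and the highest TSA value nearly met. It fell short of the test, with a log2 fold change of −0.43 (standard error 0.17, adjusted p 0.0655). Without vehicle library 2 it passed, at −0.57 (adjusted p 0.0246), and without TSA library 1 it did not pass, at −0.50 (adjusted p 0.0547). Its 19 alternatives gave −0.57 to −0.25 with adjusted p from 0.0246 to 0.188.

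POU2F3 was the only 1 of the 10 genes with higher values in TSA. It was at 0.0225 TPM in vehicle library 1, at 0 in library 2 and at 0.0213 TPM in library 3, against 0.477, 0.484 and 0.510 TPM in the TSA libraries. It stayed under 1 TPM throughout and so under the filter of the main test. The recovered reads were 1, 0 and 1 in vehicle and 23, 24 and 24 in TSA. Per depth, the ratio of the 71 TSA reads to the 2 vehicle reads was 35.8, with an exact 95% interval of 9.55 to 301 that covers counting error only. An exact two-sided permutation test of 3 against 3 libraries gave p = 0.1, the smallest it can give. Fitted without a filter, the log2 fold change was 0.55 (limma adjusted p 0.00069).

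The authors' deposited table, a count-based test of their own, gave 9 of the 10 genes an FDR under 0.05, against 41.3% of all its genes. That share is over 31814 genes and includes those under the filter used here. Over the 17596 genes that passed the filter, limma called 62.2%. In the authors' deposited table the log2 fold change was −5.05 for SCRT2, −4.82 for ST18, −4.55 for INSM1 and −4.47 for MYT1L. It was −2.67 for PROX1, −1.81 for MYT1, −0.98 for ISL1 and −0.70 for SCRT1 in the authors' deposited table. The same authors' deposited table gave 4.87 for POU2F3 (FDR 3.38e-11), and −0.40 for POU3F2, the gene it did not call (FDR 0.111).

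The order of the genes differed between the groups. In vehicle it ran INSM1, ISL1, PROX1, ST18, POU3F2, MYT1, SCRT2, SCRT1, MYT1L and POU2F3. The 3 values of neighbours in this order overlapped only for PROX1 with ST18 and for SCRT2 with SCRT1. In TSA the order was ISL1, INSM1, POU3F2, PROX1, SCRT1, MYT1, ST18, POU2F3, SCRT2 and MYT1L. Here the values overlapped for INSM1 with POU3F2, for SCRT1 with MYT1 and for SCRT2 with MYT1L. ISL1, at 71.8 ± 2.60 TPM, was the most abundant of the 10 in TSA, and POU2F3, last in vehicle, stood above SCRT2 and MYT1L. The summed TPM of the 10 genes was 847 to 966 in vehicle and 134 to 137 in TSA.

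**Figure D3:**
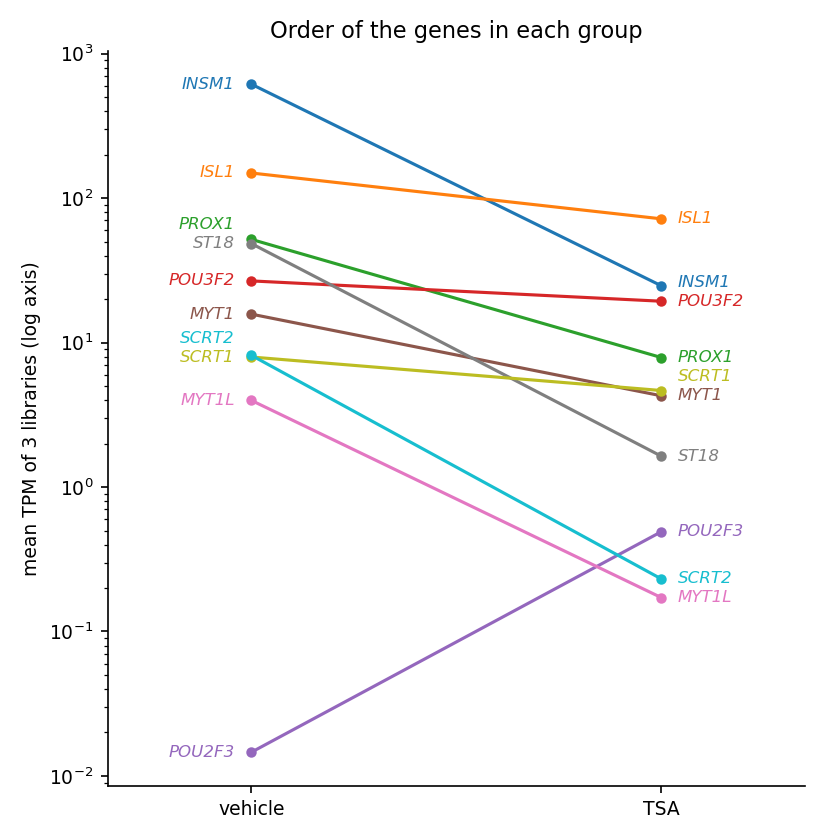
Mean TPM of 3 libraries on a log axis for each of the 10 genes in vehicle (left) and TSA (right), joined by a line per gene. INSM1 drops from 614 to 24.7 TPM and under ISL1, while POU2F3 is the only rising line, from 0.0146 to 0.490 TPM.

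Among other listed factors of neuroendocrine and neural lineages, 14 of 19 tested genes were lower and 2 higher, or 11 and 2 under median-of-ratios scaling. Of all tested genes 34.2% were lower and 28% higher, the shares to hold beside this and the lists below. The list also held ID1 to ID4, inhibitors of basic helix-loop-helix factors, and ID2, ID3 and ID4 were among the 14. The list had a median log2 fold change of −0.88, beside −0.095 for all tested genes. FOXA1, a forkhead factor of foregut epithelia, fell from 59.7 ± 3.50 to 8.06 ± 0.680 TPM. TCF4, an E protein that pairs with neural basic helix-loop-helix factors, fell from 79.2 ± 15.3 to 8.01 ± 2.14 TPM. NEUROD4, a neuronal basic helix-loop-helix factor, rose from 5.93 ± 2.02 to 46.8 ± 3.92 TPM.

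Among the other SNAG genes 3 of 5 tested were higher and 1 lower, or 1 and 1 of the 3 that reached 1 TPM in all vehicle libraries. Here and in the lists below, this cut leaves out genes that rose from under 1 TPM but keeps genes that fell under it. Counts after the cut therefore lean toward lower calls. SNAI1, which encodes Snail, rose from 2.62 ± 0.381 to 13.4 ± 2.85 TPM and SNAI3 from 0.520 ± 0.0311 to 3.69 ± 0.740 TPM. INSM2, the paralog of INSM1, rose from 0.683 ± 0.307 to 1.92 ± 0.299 TPM (adjusted p 0.00922), far under the INSM1 level of either group. SNAI2, which encodes Slug, fell from 39.96 ± 4.59 to 18.6 ± 1.06 TPM. SNAI3 and INSM2 were under 1 TPM in every vehicle library and were tested because of their TSA values, which also holds for POU4F2, PTGS1, PLCG2, REST and HEYL. The reverse holds for POU6F1 and COLCA2, which were under 1 TPM in every TSA library and were tested because of their vehicle values.

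Among genes of the LSD1, CoREST and SIN3 corepressors, with which SNAG and MYT proteins work, 8 of 14 were lower and 2 higher, with a median log2 fold change of −0.61. With quantile scaling 7 were lower and 4 higher. GSE1 fell from 73.5 ± 14.1 to 10.5 ± 1.85 TPM, ZMYM3 from 64.1 ± 11.3 to 18.2 ± 7.41 TPM and ZMYM2 from 35.2 ± 5.26 to 17.1 ± 4.34 TPM. HMG20B, a subunit of the CoREST complex, rose from 20.5 ± 1.79 to 65.3 ± 6.66 TPM. KDM1A, which encodes LSD1 itself, fell from 246 ± 16.3 to 155 ± 4.24 TPM.

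Of 7 other tested POU genes 2 were higher and 2 lower, beside 28% and 34.2% of all tested genes. Of the 6 that reached 1 TPM in all vehicle libraries 1 was higher and 2 were lower. POU6F1 fell from 4.24 ± 0.333 to 0.197 ± 0.0607 TPM. POU4F2, known from retinal ganglion cells, rose from 0.0626 ± 0.0731 to 6.24 ± 0.753 TPM, and POU3F1, a close relative of POU3F2, rose from 14.1 ± 0.572 to 26.4 ± 5.32 TPM. Among LIM-homeodomain genes and cofactors, the relatives and partners of ISL1, 5 of 11 were lower and 3 higher, or 7 and 3 with length and GC trends removed. Of the 9 that reached 1 TPM in all vehicle libraries 5 were lower and 1 was higher. LDB1, the adaptor that LIM-homeodomain proteins bind, fell from 58.0 ± 5.94 to 20.5 ± 4.00 TPM. LHX9 fell from 15.7 ± 3.36 to 1.58 ± 0.203 TPM and LHX8 from 12.2 ± 0.874 to 2.02 ± 0.671 TPM, while LMX1B rose from 1.43 ± 0.446 to 17.01 ± 1.59 TPM.

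Genes of tuft cells, where POU2F3 acts, went both ways. Of 8 tested genes 5 were lower and 3 higher, beside 34.2% and 28% of all tested genes. In every TSA library 8 of the 17 in the table were under 1 TPM, including genes that fell to that level, such as COLCA2. Among the 6 that reached 1 TPM in all vehicle libraries, 5 were lower and 1 was higher. COLCA2, a coactivator of POU2F3, fell from 29.1 ± 2.82 to 0.769 ± 0.130 TPM, and ASCL2 fell from 17.2 ± 1.64 to 1.99 ± 0.486 TPM. PTGS1, a cyclooxygenase of tuft cells, rose from 0.160 ± 0.0172 to 12.6 ± 1.84 TPM and PLCG2, a phospholipase, from 0.708 ± 0.0624 to 9.66 ± 2.28 TPM. GFI1B, a SNAG factor of tuft cells, was listed at 0 in every vehicle library, against a TSA mean of 0.223 ± 0.0969 TPM.

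**Figure D4:**
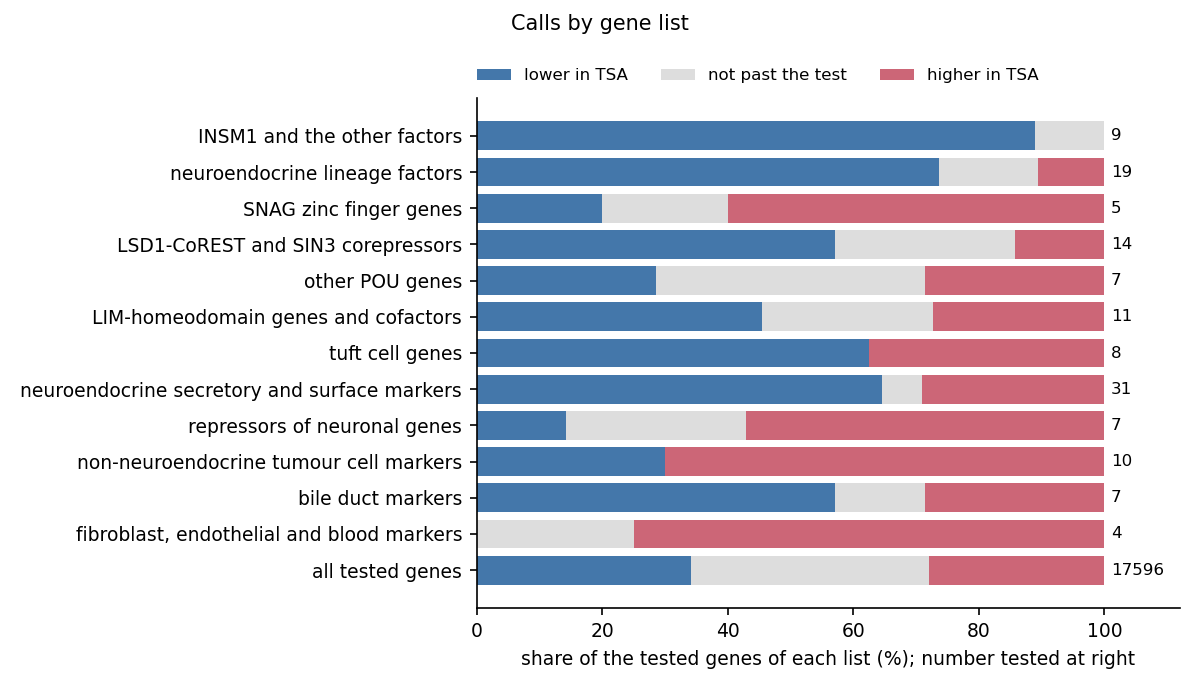
Share of the tested genes of each list (x axis, percent) that were lower in TSA, did not pass the test or were higher in TSA, with the number tested at the right of each bar. The bar of the 10 factors holds 8 lower genes of 9 tested, beside 34.2% lower over all tested genes in the bottom bar.

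The secretory and surface markers of neuroendocrine cells were lower in 20 of 31 tested genes and higher in 9. The shares over all tested genes were 34.2% and 28%, and this list had a median log2 fold change of −0.81. TAGLN3, a neuronal calponin-like protein, fell from 444 ± 58.7 to 28.95 ± 5.68 TPM, and DDC, the decarboxylase that makes dopamine and serotonin, fell from 255 ± 26.6 to 18.2 ± 5.27 TPM. PCSK1, a prohormone convertase gene, fell by 3.87 and ELAVL4, a neuronal RNA-binding protein gene, by 3.86 on the log2 scale. Others went the other way, as SSTR2, a somatostatin receptor gene, rose from 2.61 ± 0.883 to 21.2 ± 1.78 TPM. CHGA, which encodes chromogranin A, rose from 138 ± 18.7 to 239 ± 5.01 TPM, and NCAM1, which encodes CD56, from 141 ± 15.9 to 267 ± 84.4 TPM. Of 7 tested genes listed with repressors of neuronal genes 4 were higher and 1 lower, or 3 and 2 with length and GC trends removed. Among the 5 at 1 TPM or more in all vehicle libraries, 2 were higher and 1 lower. Both the 4 and the 2 include NRARP, a regulator of Notch signalling and not itself such a repressor. NRARP rose from 15.6 ± 1.76 to 25.0 ± 3.47 TPM. REST, the repressor that silences neuronal genes outside the nervous system, rose by 2.57 and HEYL, a Notch target, by 3.30 on the log2 scale, while HEY1 fell from 48.0 ± 4.58 to 27.8 ± 2.09 TPM.

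Markers of other cell types are given beside all tested genes, of which 28% were higher, 34.2% lower and 62.2% changed in either direction. Of 10 tested markers of non-neuroendocrine tumour cells 7 were higher and 3 lower. Counting just the 7 that reached 1 TPM in all vehicle libraries, 4 were higher and 3 lower. LGALS1, a galectin gene, rose from 5.45 ± 1.33 to 115 ± 41.8 TPM, and CD44, an adhesion receptor gene, fell from 10.9 ± 0.512 to 1.69 ± 0.205 TPM. The list summed to 1002 to 1257 TPM in vehicle and 609.7 to 918 TPM in TSA. S100A6, 1 of the 3 lower genes, had the highest vehicle level of the list and fell from 782 ± 94.2 to 217 ± 61.5 TPM. The lower sum therefore does not describe the 7 higher genes. CAV1, CAV2, AXL and YAP1 were listed at 0 in vehicle. Of 7 tested bile duct markers 4 were lower and 2 higher, and the list summed to 779 to 990.1 TPM in vehicle and 338 to 447 TPM in TSA. Of 4 tested fibroblast, endothelial and blood markers 3 were higher and 0 lower, but just 1 of the 4 reached 1 TPM in all vehicle libraries, and it was neither. All 14 in the table summed to 34.4 to 45.8 TPM in TSA. HBA1, an alpha globin gene, rose from 0.434 ± 0.392 to 26.7 ± 8.64 TPM, COL1A1, a collagen gene, from 0.510 ± 0.358 to 5.44 ± 0.958 TPM, and CD68, a macrophage marker, from 1.14 ± 0.513 to 3.88 ± 1.11 TPM. The part of these changes in the fall of the factor genes was not tested.

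Genes beside the factors on the chromosome went both ways. The nearest gene with a row on each side, by the order of GENCODE 29, gave 20 genes, of which 16 were tested, 8 higher and 6 lower, beside 28% and 34.2% of all tested genes. OAF and SLC52A3, both among the higher ones, were under 1 TPM in every vehicle library and were tested because of their TSA values. The neighbours of SCRT2 moved opposite to it, as SRXN1, which encodes sulfiredoxin, rose from 14.3 ± 1.08 to 94.2 ± 12.6 TPM. SLC52A3, a riboflavin transporter gene on the other side, rose from 0.103 ± 0.0314 to 6.37 ± 0.291 TPM. A gene model that overlaps SCRT2 on the same strand rose from 14.5 ± 1.09 to 93.7 ± 12.6 TPM, nearly the values of SRXN1, and reads of such overlapping genes can be split by the counting. DGAT1 and TMEM249 beside SCRT1 also rose, DGAT1 from 38.6 ± 4.05 to 128 ± 15.95 TPM.

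Beside PROX1 the neighbours parted. SMYD2, a lysine methyltransferase gene, fell from 118 ± 12.9 to 17.9 ± 3.43 TPM, and RPS6KC1 rose from 41.1 ± 2.40 to 70.9 ± 5.22 TPM. RALGAPA2 beside INSM1 rose from 37.5 ± 6.86 to 71.3 ± 26.0 TPM (adjusted p 0.0242), a call that ended without vehicle library 2 (adjusted p 0.0719). C20orf26, on the other side of INSM1, missed the threshold (2.82 ± 0.692 TPM in vehicle, 4.43 ± 1.15 in TSA, adjusted p 0.0849) but was called higher under median-of-ratios scaling (adjusted p 0.0366) and with recovered reads and voom (adjusted p 0.0232). The nearest genes of ST18 were under the filter. The calls of MMS22L beside POU3F2, of PXDN beside MYT1L, and of OPRL1 and PCMTD2 beside MYT1 each ended when single libraries were left out, with adjusted p up to 0.0989. MMS22L also lost its call with length and GC trends removed, where its log2 fold change went from −0.73 to −0.26 (adjusted p 0.102). OAF beside POU2F3 rose from 0.402 ± 0.242 to 3.26 ± 0.393 TPM, while TMEM136 on the other side fell from 16.0 ± 2.01 to 9.10 ± 1.44 TPM.

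**Figure D5:**
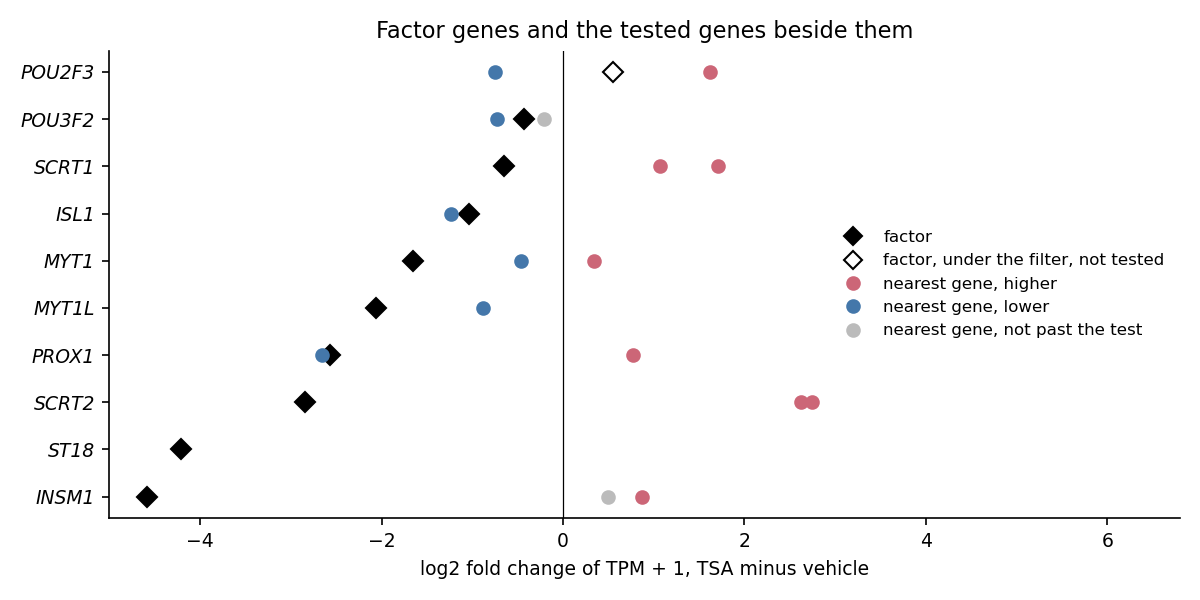
Log2 fold change (x axis, TSA minus vehicle, on TPM + 1) of each factor gene (diamonds) and of the tested genes nearest to it (circles, coloured by call). Neighbours of INSM1, SCRT1 and SCRT2 lie right of 0 while these genes lie left of it, and SMYD2 lies beside PROX1 near −2.6.

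Genes with the profile most like that of INSM1 were sought among the 11790 tested genes whose higher group mean reached 5 TPM. Likeness was the root mean square difference of log2(TPM + 1) over the 6 libraries, each gene taken relative to its vehicle mean, so the difference between the groups dominates it. RIPPLY3, a transcriptional corepressor gene, was closest, with a difference of 0.083 and mean levels of 384 TPM in vehicle and 14.4 TPM in TSA. TM4SF1, H2AFY2, HEPACAM2 and MS4A8 followed, with differences of 0.14 to 0.25. For POU3F2 the closest were ZNF25, R3HDM1, SEC14L1, UBXN2B and FMN2, with differences of 0.071 to 0.092. EPS15L1, ATP2C2, NFS1, TBC1D25 and CAMTA1 were closest to POU2F3, at differences of 0.032 to 0.050, but the pseudocount compresses a gene that low, so this set shares little with it beyond a small rise.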

How the data were processed

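Polyadenylated RNA of 3 vehicle and 3 TSA libraries was sequenced after a strand-specific preparation, per the labels' protocols. Tools in the submitters' processing notes, with no role given, are edgeR, featureCounts, STAR 2.5.3a, Picard 1.127 and FastQC 0.11.2, with the build hg19. The authors deposited TPM with GENCODE 19 genes, each library summing to 1000000. Their own comparison holds, per the file headers, a log2 fold change and mean log2 level, a likelihood ratio score and a p-value with FDR. Its sign matched TSA minus vehicle for 97.1% of tested genes.

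Values were tested as log2(TPM + 1) by limma 3.58.1 (R 4.3.3, trended eBayes). A gene entered where 3 or more of the 6 libraries reached 1 TPM, which left 17596. Tests were two-sided, p-values were adjusted after Benjamini and Hochberg over all 17596, and the threshold was 0.05. Such fold changes understate those of low genes. The limma procedure was run on simulated data that lacked the differences in long transcripts between these libraries. That run cannot show how the procedure behaves where such differences are present. Reads are the smallest whole numbers that gave the TPM ratios of a gene (100% of 27644 genes above 0 in at least 2 libraries, relative tolerance 1e-08), so they are lower bounds. No pair of libraries within a group looked like a duplicate deposit (chi-square per degree of freedom 7.97 to 105). Gene order, transcript lengths and GC content came from GENCODE 29 on another build (96.9% of genes matched), so only promoter windows carry coordinates, those of GRCh38.p14.

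The members and lists were chosen with earlier results of these data known. Named were all members, up to 4 called genes per list with the greatest change (or the 2 with the highest TPM), neighbours and the closest profiles. KDM1A, KRT19, CFTR, GFI1B, AXL, YAP1, CAV1, CAV2, SSTR2, CHGA, NCAM1, NRARP and ID1 to ID4 were named after their values were seen. NEUROD1, POU1F1, POU3F4, LDB2, LRMP, SLC10A2, PECAM1, MS4A1 and HBB were not analysed here, and a few other listed genes, some of them falling under that rule, are not reported here. Protein sequences were not used here.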

Additional observations from a re-analysis of the deposited data

How the results depend on the processing

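Over up to 19 alternatives (pseudocounts of 0.1 and 0.5, no filter or 5 TPM, other scalings, limma without trend or robust, a replicate block, fewer libraries, recovered reads with voom, length and GC trends removed), the direction of each of the 9 tested genes was that of the main test. INSM1, ISL1, PROX1, MYT1, MYT1L, ST18 and SCRT2 passed the test in every alternative that tested them, INSM1 with log2 fold changes of −4.93 to −4.42. MYT1L ranged from −4.41 to −1.81 and SCRT2 from −4.92 to −2.63, the most negative with recovered reads. POU2F3 could be tested only without a filter, where it was the 1 of the 10 called higher. With 1 library left out, 8 to 9 were called lower. A filter of 5 TPM or quantile scaling gave 7, the first because fewer genes were tested. Counts over all genes stayed within 1.5 times, with 5157 to 6585 lower and 4289 to 4977 higher on leaving out 1 library. Median-of-ratios scaling moved the median of all genes by 0.10, and 5341 were then lower and 5372 higher. Replicate numbers 1 and 2 deviated together across the groups (correlations 0.63 and 0.59) and number 3 did not (−0.073), so the numbers were not taken as pairs. With the replicate block 6848 genes were lower and 5637 higher, and 8 of the 10 genes were lower. The precision of POU2F3 is limited by its 2 vehicle reads.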
